A study of Mus musculus with 4 samples.

Results

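Of 20624 protein-coding genes on chromosomes 1 to 19, 34 (0.165%) gained a peak of open chromatin at a gene end in female germ cells lacking Snf5. These genes had an ATAC-seq peak within 1 kb of the annotated gene start or end in both Snf5 CKO lists and in neither Control list. They were thus chosen by the presence and absence of peaks in the very lists described here, and a peak counted when it overlapped a window by 1 bp or more. Dppa2, Tfap2c and the Hox genes, 41 genes in all, were left out beforehand, and 4 of them also met the peak rule. For comparison, 629 genes (3.05%) had a peak in both Control lists and in neither Snf5 CKO list, and 11567 had a peak in all 4 libraries. Their peaks are described without a test, because the choice itself fixes presence in Snf5 CKO and absence in Control.

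The germ cells came from female C57BL/6 embryos at embryonic day 15.5, and in both groups an Oct4-EGFP reporter was used to sort them. There were 2 Control libraries and 2 libraries with a conditional knockout (CKO) of Snf5, the protein of the gene Smarcb1. What drives the deletion, and whether the libraries of a group came from separate embryos, is not given in the sources used here. In ATAC-seq a transposase cuts and tags DNA that is not covered by nucleosomes, so that a peak marks open chromatin, not transcription.

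Snf5 is a core subunit of SWI/SNF, a complex that uses ATP to slide or evict nucleosomes and is best known for opening enhancers and promoters. Many of the promoters that stay open in most tissues are rich in CpG dinucleotides, whereas promoters of tissue-restricted genes are often CpG-poor and covered by nucleosomes or DNA methylation when silent. At this stage female germ cells are in meiotic prophase, after their DNA methylation has been erased.

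The lists held 39465 and 36730 peaks in Control and 45422 and 28625 in Snf5 CKO. Read depth is unknown, so a missing peak means only that none was called. The targeted gene, Smarcb1, had a strongest peak of fold enrichment 4.37 in Control 1 and 4.19 in Control 2, and no peak in either Snf5 CKO list. All 10 germ cell markers examined, among them Ddx4, Dazl and Pou5f1, had a peak in all 4 libraries. In the order Control 1, Control 2, Snf5 CKO 1 and Snf5 CKO 2, peaks were found at 6, 6, 6 and 6 of 8 markers of ovarian supporting cells, 5, 5, 5 and 3 of 7 of stroma and 3, 3, 2 and 2 of 6 of endothelium. The counts were 1, 2, 1 and 1 of 5 for blood and 2, 2, 0 and 0 of 4 for male germ cells. The part of other cells in the gained peaks was not tested.

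The sequences below are the 250 bases before the RefSeq start of 6 gained genes, shown because the gained peaks lie on them. They are written 5′ to 3′ along the gene's strand in GRCm38.p6, the primary assembly of mm10, with capitals marking bases that lie under peaks of both Snf5 CKO lists. They are the highest-ranked genes by fold enrichment whose peaks reached the RefSeq promoter window, together with H2-T22, whose peak is shared with a neighbour.
Aadat, chr8:60505874-60506123, plus strand: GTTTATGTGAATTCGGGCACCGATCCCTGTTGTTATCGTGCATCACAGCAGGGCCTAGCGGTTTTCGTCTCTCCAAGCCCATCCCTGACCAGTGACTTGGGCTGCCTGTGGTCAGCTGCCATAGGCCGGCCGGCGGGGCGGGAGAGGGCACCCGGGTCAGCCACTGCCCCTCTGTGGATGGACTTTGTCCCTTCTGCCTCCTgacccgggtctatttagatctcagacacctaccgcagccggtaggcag
Drc7, chr8:95054853-95055102, plus strand: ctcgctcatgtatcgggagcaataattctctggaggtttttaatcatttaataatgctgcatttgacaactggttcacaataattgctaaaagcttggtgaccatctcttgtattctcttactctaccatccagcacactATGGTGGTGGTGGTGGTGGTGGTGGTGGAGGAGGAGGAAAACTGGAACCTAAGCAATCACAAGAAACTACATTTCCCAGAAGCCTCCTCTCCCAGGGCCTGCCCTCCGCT
Gm5771, chr6:41392106-41392355, plus strand: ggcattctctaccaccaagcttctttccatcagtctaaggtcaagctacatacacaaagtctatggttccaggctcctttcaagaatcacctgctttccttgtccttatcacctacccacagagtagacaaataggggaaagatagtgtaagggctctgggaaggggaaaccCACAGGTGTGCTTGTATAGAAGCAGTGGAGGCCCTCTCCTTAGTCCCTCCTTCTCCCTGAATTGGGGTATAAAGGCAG
Gm53057, chr13:65699202-65699451, minus strand: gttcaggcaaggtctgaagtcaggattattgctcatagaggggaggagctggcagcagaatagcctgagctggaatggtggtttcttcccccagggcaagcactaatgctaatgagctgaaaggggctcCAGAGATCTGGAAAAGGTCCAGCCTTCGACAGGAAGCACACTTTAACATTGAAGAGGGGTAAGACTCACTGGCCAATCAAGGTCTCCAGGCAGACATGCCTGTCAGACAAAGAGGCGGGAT
H2-T22, chr17:36042743-36042992, minus strand: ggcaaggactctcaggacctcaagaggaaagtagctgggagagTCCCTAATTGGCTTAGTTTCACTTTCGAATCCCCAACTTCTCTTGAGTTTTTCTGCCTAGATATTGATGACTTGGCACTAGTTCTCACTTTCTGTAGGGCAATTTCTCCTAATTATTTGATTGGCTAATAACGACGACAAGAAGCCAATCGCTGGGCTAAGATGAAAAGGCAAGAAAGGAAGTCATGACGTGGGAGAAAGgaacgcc
Bdh2, chr3:135280971-135281220, plus strand: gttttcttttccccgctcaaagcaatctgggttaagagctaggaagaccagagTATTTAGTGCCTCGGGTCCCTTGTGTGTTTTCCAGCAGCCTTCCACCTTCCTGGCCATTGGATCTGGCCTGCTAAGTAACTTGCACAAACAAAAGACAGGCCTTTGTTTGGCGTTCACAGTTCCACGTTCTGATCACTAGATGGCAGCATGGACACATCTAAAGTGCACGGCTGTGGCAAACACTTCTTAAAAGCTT

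Shared coverage reached the last base before the start in Drc7, Gm5771, Gm53057 and Bdh2. In Aadat 202 of the 250 bases lay under both peaks, in H2-T22 200 and in Bdh2 197. Coverage was less in Gm53057 with 121 bases, in Drc7 with 110 and in Gm5771 with 78. The Aadat sequence held 13 CpG dinucleotides, while Gm5771 held 0, Gm53057 2, Drc7 3, Bdh2 5 and H2-T22 6.

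Peaks at the gained genes were lower and narrower, by median, than those at genes open in all 4 libraries. The latter had to be called in every list, and gained genes in the Snf5 CKO lists alone. The part of this choice in the contrast was not tested. Fold enrichment, which is the authors' own value for each peak over its local background, is given below for the strongest peak in the window, and ranked by the lower of the 2 Snf5 CKO values. Its median over the 34 genes was 4.09 in Snf5 CKO 1, with a range of 3.08 to 5.98. In Snf5 CKO 2 the median was 3.75, with a range of 2.85 to 5.75. Genes open in all 4 libraries had medians of 5.37 and 5.18 in the same lists. The median gained gene thus lay above 15.5% of those genes in Snf5 CKO 1 and above 9.42% in Snf5 CKO 2. Against all peaks of a list, whose medians were 4.13 and 4.41, 16 of the 34 genes lay above in Snf5 CKO 1 and 9 in Snf5 CKO 2. Lost genes had medians of 3.54 and 3.56 in the 2 Control lists. A −log10 q of at least 3 in both Snf5 CKO lists was reached by 19 of the 34 genes, and one of at least 5 by 5 genes, among them Csrp1, Enpp3, Aadat and Rfx5.

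**Figure D1:**
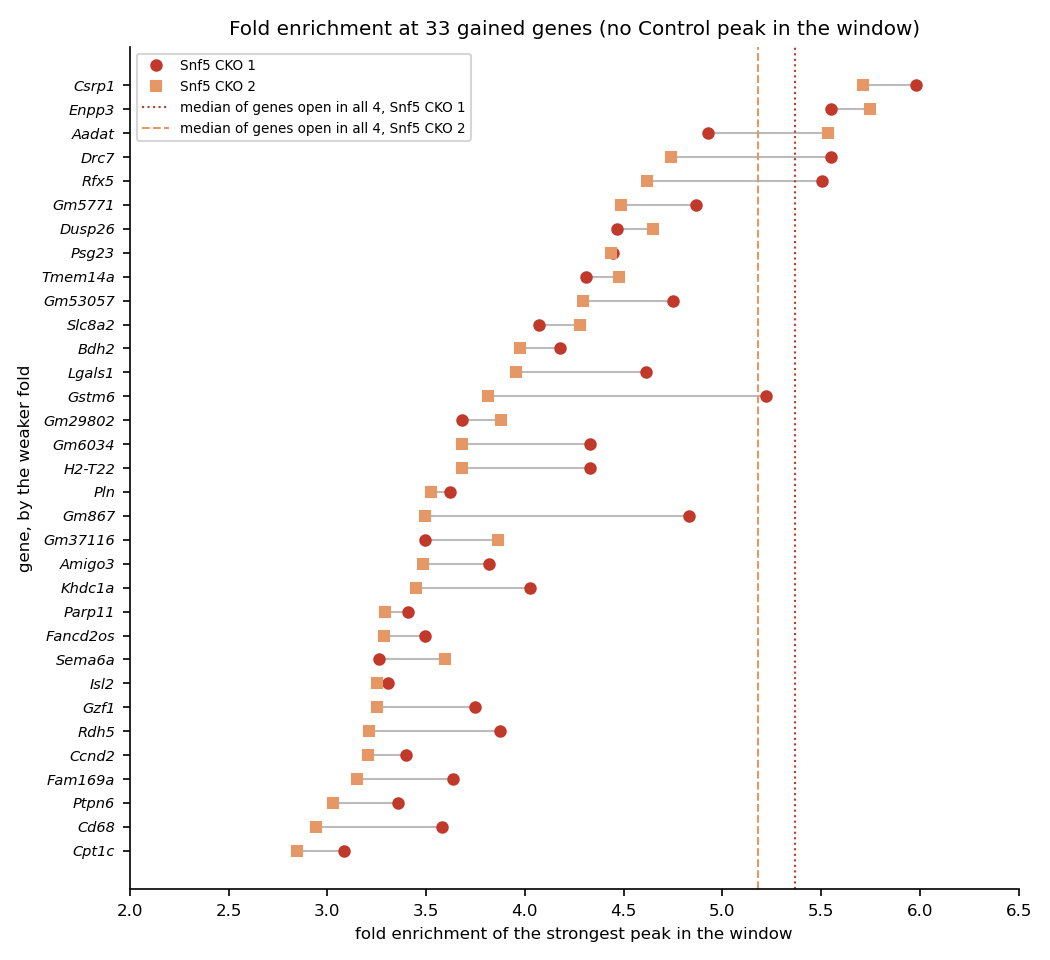
Fold enrichment (horizontal axis) of the strongest peak in the window at 33 of the 34 gained genes, as circles for Snf5 CKO 1 and squares for Snf5 CKO 2, with lines at the medians of genes open in all 4 libraries. Csrp1 and Enpp3 are the only genes drawn with both points right of both lines, and Cpt1c has the lowest pair, 3.08 and 2.85.

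Median widths were also smaller than at genes open in all 4 libraries. In Snf5 CKO 1 the median width was 366 bp, against 832 bp at genes open in all 4 libraries. For Snf5 CKO 2 the corresponding medians were 303.5 and 788 bp. Only 4 of the 34 genes in Snf5 CKO 1, and 2 in Snf5 CKO 2, exceeded those medians, while 15 and 5 exceeded the medians of all peaks, 427 and 515 bp. At 10 genes both peaks were under 300 bp, and 5 genes had a peak of 200 bp, the smallest width in any list. The broadest pairs were at Gzf1, with 1067 and 1016 bp, and Fam169a, with 1138 and 931 bp. Lost genes had median widths of 629 and 531 bp in the Control lists.

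**Figure D2:**
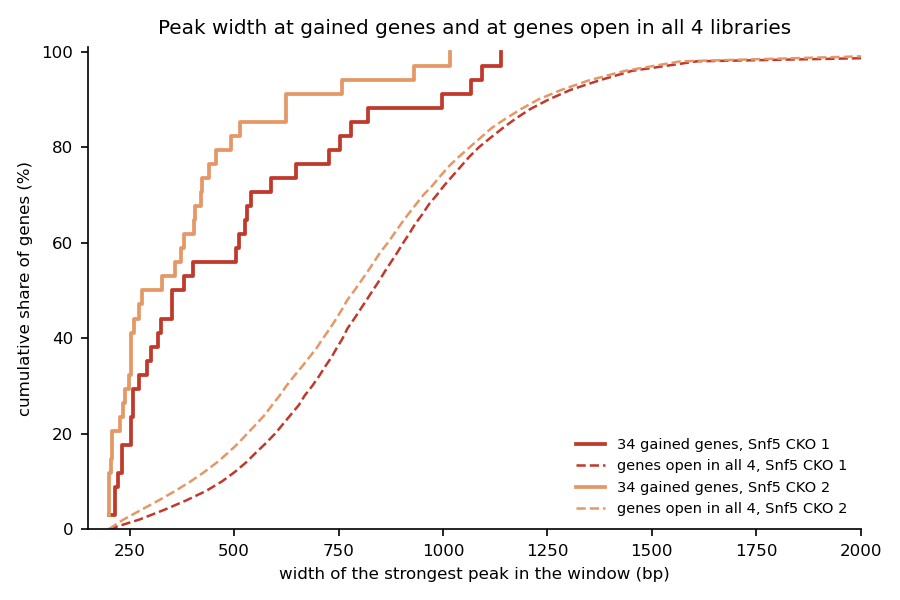
Cumulative share of genes (vertical axis, percent) by the width of the strongest peak in the window (horizontal axis, bp), as solid steps for the 34 gained genes and dashed lines for genes open in all 4 libraries, by Snf5 CKO library. The solid steps lie left of the dashed lines of the same colour, with medians of 366 and 303.5 bp against 832 and 788 bp.

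The strongest peaks of the 2 Snf5 CKO libraries overlapped in nearly all of these genes. The rule itself asks for a peak of both lists within 1 kb of a gene end, which favours such overlap. No share for other genes is given beside it. At 33 of 34 genes the strongest peaks of the 2 libraries shared bases, at 30 genes over 80% of the narrower peak was shared, and at 16 genes all of it. Isl2, which encodes a LIM-homeodomain transcription factor of motor neurons, was the exception. Its Snf5 CKO 1 peak of 215 bp crossed the lower-coordinate end, and its Snf5 CKO 2 peak of 404 bp lay 981 bp inside the higher-coordinate end. The second peak belonged to a merged region with peaks in all 4 libraries, so that Isl2 met the rule without a shared gained peak. At Rfx5 a Control 2 peak overlapped the Snf5 CKO peaks 1084 bp or more from the gene end, just outside the window. The other 32 genes lay in 31 merged regions with no Control peak, out of 3122 such gained regions on chromosomes 1 to 19.

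**Figure D3:**
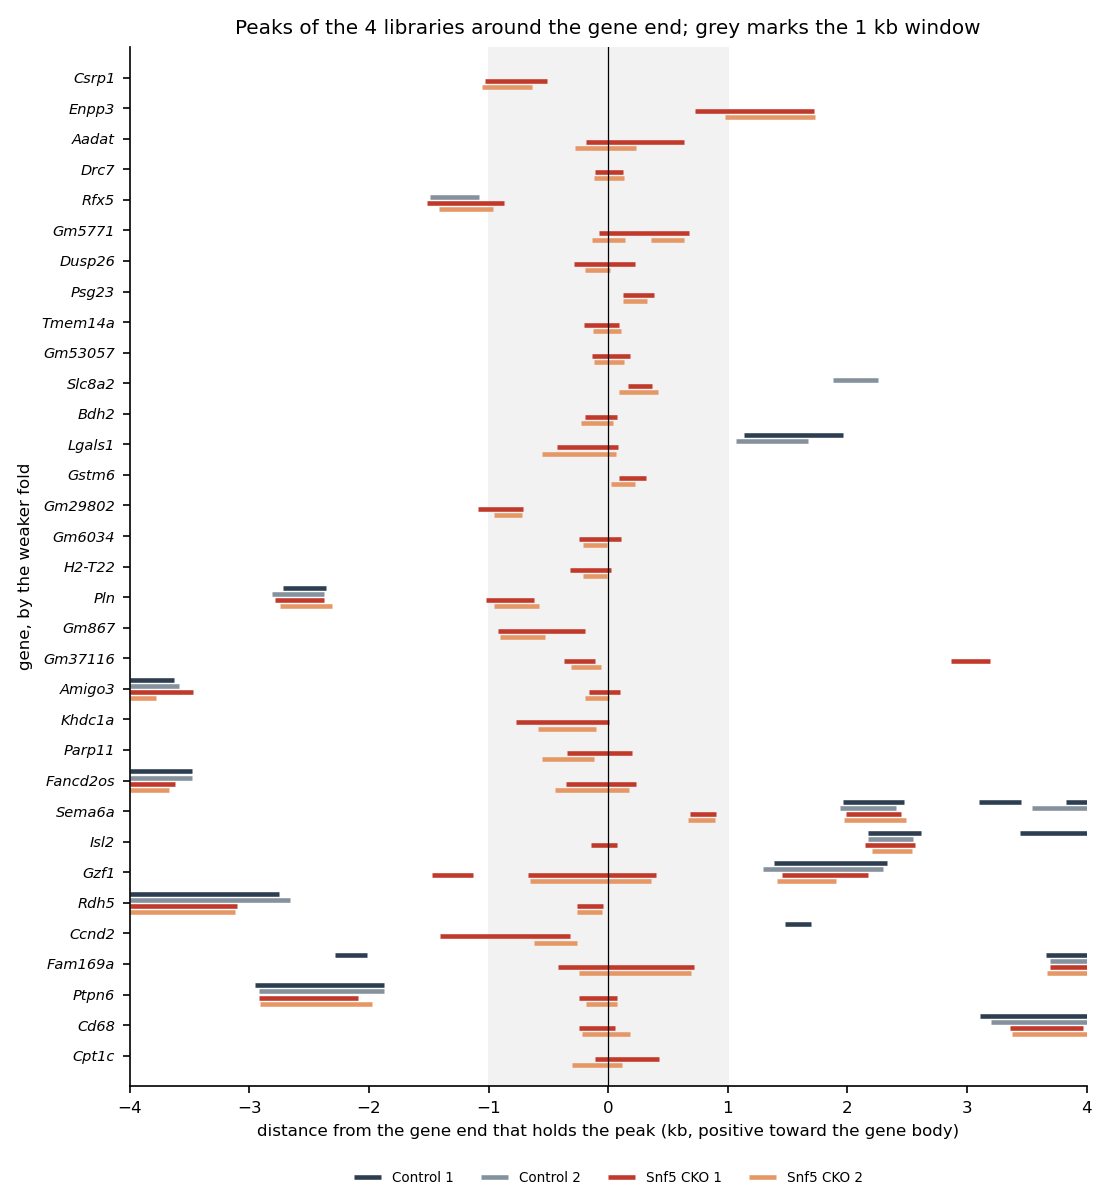
Peaks of the 4 libraries (bars, 1 colour each) within 4 kb of the gene end that holds the Snf5 CKO 1 peak, for 33 of the 34 genes ranked by fold enrichment; the horizontal axis is distance in kb, positive toward the gene body, and grey marks the 1 kb window. Control bars are absent from the grey band, but lie 1 to 3 kb from the end at some genes, among them Rfx5, Lgals1, Pln and Gzf1; the Snf5 CKO 2 peak of Isl2 lies at its other end and is not drawn.

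Not all gained peaks lay at a listed start of transcription. RefSeq promoter entries gave a start and strand for 28 of the 34 genes. The gained peak lay at the 5′ gene end in both libraries at 20 of these and at the 3′ end at 7, namely Csrp1, Rfx5, Psg23, Slc8a2, Pln, Parp11 and Rdh5. Isl2 had a peak at a different end in each library. The peak lay within 1 kb of a listed start in both libraries at 18 genes and farther from every listed start at 10. Of those 10, Csrp1, Rfx5, Tmem14a, Slc8a2, Parp11, Isl2 and Gzf1 already had a listed start with a peak in all 4 libraries. Psg23, Pln and Rdh5 had no peak at a listed start in any library. Fam169a gained a peak at its outer start, while its second listed start, farther into the gene, had a peak in all 4. The 6 genes not matched to a start included Khdc1a, Lgals1, Sema6a, Ccnd2 and Dusp26.

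The genes fall into loose groups by known function, which were drawn up after the members were known and were not tested. Enzymes made up 8 of the 34 genes, and 5 of them passed a −log10 q of 3 in both lists. Their lower fold enrichments ran from 2.85 to 5.55, with a median of 3.90. Enpp3, an ectoenzyme that hydrolyses extracellular nucleotides and is a surface marker of basophils and mast cells, lies at chromosome 10, 24773814 to 24836195. Its peaks spanned 24834472 to 24835468 in Snf5 CKO 1 and 24834463 to 24835221 in Snf5 CKO 2, inside the gene and 727 and 974 bp from its start. Fold enrichments were 5.55 and 5.75 and widths 997 and 759 bp, with no Control peak nearer than 34097 bp. Enpp3 had the highest −log10 q of the 34 genes, 14.2 and 9.45.

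Aadat encodes a mitochondrial aminotransferase that turns kynurenine, a product of tryptophan breakdown, into kynurenic acid. The gene lies at chromosome 8, 60505843 to 60545677, and its peaks of 821 and 514 bp crossed the 5′ end, with fold enrichments of 4.93 and 5.54. The nearest Control peak lay 84844 bp away. Gm5771, a trypsinogen-like gene at chromosome 6, 41392356 to 41397256, had a peak of 754 bp in Snf5 CKO 1 (fold enrichment 4.86). In Snf5 CKO 2 it had separate peaks of 281 and 280 bp, with fold enrichments of 3.59 and 4.49. Its surroundings were bare, with no Control peak within 150125 bp.

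Bdh2, a cytosolic dehydrogenase linked to ketone bodies and iron handling, had peaks of 272 bp in both lists, with fold enrichments of 4.18 and 3.98. Gstm6, a glutathione transferase of the mu class, had 5.22 and 3.82 at its 5′ end, and Snf5 CKO 1 had another peak near its 3′ end with 4.25. Each of the 3 listed starts of Gstm6 had a peak within 1 kb in both Snf5 CKO lists and in neither Control list. The 5′ peak itself covered a listed start. Rdh5, a retinol dehydrogenase, had narrow peaks of 214 and 207 bp at its 3′ end with fold enrichments of 3.88 and 3.21. That peak also touched the window of Cd63, a gene with peaks in all 4 libraries. Parp11, an ADP-ribosyltransferase, had 3.41 and 3.29 at its 3′ end, and Cpt1c, the brain-type member of the carnitine palmitoyltransferase family, had 3.08 and 2.85 at its 5′ end. Both were among the 3 genes with a −log10 q under 2 in the weaker list.

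Genes of immune cells or of surface recognition made up 7, with lower fold enrichments of 2.94 to 4.62 and a median of 3.68. H2-T22 and Gm6034 shared 1 peak between their facing starts on chromosome 17. H2-T22, at 36037128 to 36042742, encodes a non-classical MHC class I protein, and RefSeq lists an H2 synonym for Gm6034, at 36042961 to 36058645. The shared peak spanned 36042715 to 36043065 in Snf5 CKO 1 and 36042750 to 36042949 in Snf5 CKO 2, with fold enrichments of 4.33 and 3.68. These 2 genes are therefore 1 observation.

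Cd68, a lysosomal glycoprotein of macrophages, had peaks of 302 and 407 bp over its start, with fold enrichments of 3.58 and 2.94 and the lowest −log10 q of all 34 genes in Snf5 CKO 2, 1.75. Ptpn6, the phosphatase SHP-1 of blood cells, had peaks of 318 and 254 bp over the start used by RefSeq, with fold enrichments of 3.36 and 3.03. A Control 1 peak lay 1625 bp from its Snf5 CKO 1 peak. The Cd68 peak touched the window of Eif4a1, and the Ptpn6 peak that of Grcc10, both of which had peaks in all 4 libraries. Of the 5 blood markers, only Spi1 had a peak in both Snf5 CKO lists, and it had one in both Control lists too. Ptprc, Hbb-bt and Lyz2 had no peak in any list.

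Lgals1, which encodes the sugar-binding protein galectin-1, had peaks of 511 and 624 bp over its lower-coordinate end (fold enrichments 4.61 and 3.95). A Control 2 peak lay 987 bp away, inside the gene and outside the window. A merged region with peaks in both Control lists alone lay at this same distance, so Control and Snf5 CKO peaks at Lgals1 occupied neighbouring positions. Rfx5, a transcription factor of MHC class II genes, had 5.50 and 4.62 beyond its 3′ end. Psg23, a pregnancy-specific glycoprotein of the placenta, had peaks of 257 and 200 bp at its 3′ end with 4.45 and 4.44. No Control peak lay within 90858 bp of Psg23.

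Genes known from nerve or muscle made up 8, with lower fold enrichments of 3.25 to 5.71 and a median of 3.80. Csrp1, a LIM-domain protein that binds the actin cytoskeleton in smooth muscle, had fold enrichments of 5.98 and 5.71, and its lower value was the highest lower value of the 34 genes. Its peaks of 525 and 421 bp lay 508 and 638 bp beyond the 3′ end of the gene, which spans 135720063 to 135752229 on chromosome 1. A start inside Csrp1 had peaks in all 4 libraries, and the outermost start in none. The gain at Csrp1 was thus downstream of a gene whose inner promoter was open in every library.

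Slc8a2, a sodium-calcium exchanger of neurons, had peaks of 200 and 327 bp inside its 3′ end with 4.07 and 4.28. A Control 2 peak lay 1459 bp from its Snf5 CKO 2 peak. Dusp26, a dual-specificity phosphatase, had peaks of 504 and 207 bp across its higher-coordinate end (4.47 and 4.65). At Dusp26 Snf5 CKO 1 alone had another peak of 507 bp, at the lower-coordinate end, with 3.78. Amigo3, a neuronal adhesion protein encoded within Rnf123, had peaks of 253 and 200 bp over its start with 3.82 and 3.48.

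Pln, the inhibitor of the cardiac calcium pump, had peaks of 401 and 373 bp beyond its 3′ end with 3.62 and 3.52, within the overlapping gene Cep85l. Sema6a, an axon guidance protein, had peaks of 221 and 227 bp inside its higher-coordinate end with 3.26 and 3.60. At both genes Control peaks lay close by, 1340 bp from the gained peak at Pln and 1033 bp at Sema6a. Isl2 had fold enrichments of 3.31 and 3.25 for its separate peaks.

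The 4 genes of the cell cycle, nucleus and RNA binding had a median of the mean widths of 880.5 bp and lower fold enrichments of 3.15 to 3.45. Ccnd2, which encodes cyclin D2, a driver of entry into S phase, had peaks of 1094 and 359 bp just beyond its higher-coordinate end, with 3.40 and 3.21. A Control 1 peak lay 1740 bp from the Snf5 CKO 2 peak, and no Control 2 peak lay within 10051 bp. Gzf1, a zinc finger repressor, had 3.75 and 3.25, with a kept region 900 bp away that covered its listed start. Fam169a, a nuclear envelope-associated protein, had 3.64 and 3.15, and Khdc1a, a KH-domain protein of oocytes and early embryos, had peaks of 779 and 493 bp with 4.03 and 3.45. The nearest Control peak to that of Khdc1a lay 43707 bp away.

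Drc7, a part of the dynein regulatory complex of motile cilia and sperm tails, had sharply placed peaks of 231 and 249 bp over its start. They spanned 95054993 to 95055223 and 95054988 to 95055236 on chromosome 8, with fold enrichments of 5.55 and 4.74. The remaining 6 genes have no role that could be stated with certainty here or were known only by predicted-gene symbols. Tmem14a, a small membrane protein, had 4.31 and 4.48 at an outer 5′ end 52051 bp from its listed start. Fancd2os, on the strand opposite Fancd2, had peaks of 588 and 624 bp over its start with 3.49 and 3.29. Gm53057 had 4.75 and 4.30, Gm867 had 4.83 and 3.50, Gm29802 had 3.68 and 3.88, and Gm37116 had 3.49 and 3.86. Of these 4, the peaks of Gm29802 lay within Tspear and those of Gm37116 within Tsacc.

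Relatives of 9 gained genes were looked up in lists built around genes already known to be gained, so that each list contains 1 gained gene by construction. None of the 66 other genes in these lists was gained, which at 0.165% of all genes says nothing particular about them. Over all genes tested, 56.1% were open in all 4 libraries and 32.5% in none. Among 13 genes of the kynurenine pathway, Aadat was the only gained gene, 3 were open in all 4 libraries and 6 in none. Ido1 had a peak in its window in Snf5 CKO 1 alone, 921 bp from a gene end, and the Snf5 CKO 2 peak lay at 1131 bp. Both Ido1 peaks belonged to a region with peaks in all 4 libraries. Among 13 pregnancy-specific glycoprotein genes, Psg16 was open in all 4 and the 11 others beside Psg23 in none. Of 8 trypsin-like genes, 6 were open in no library and Prss1 had a peak in Snf5 CKO 1 alone. Close to the share over all genes, 4 of 7 ectonucleotide pyrophosphatase genes, 5 of 10 genes of RFX factors and MHC class II regulators, 5 of 10 genes of the dynein regulatory complex and 5 of 9 atypical dual-specificity phosphatases were open in all 4. Drc1 and Dusp15 were open in both Control lists alone. Csrp2 and Tmem14c, relatives of Csrp1 and Tmem14a, were open in all 4, and Csrp3 in none.

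Promoter windows of the 28 gained genes with a listed start had a median ratio of observed to expected CpG of 0.328, and 85.7% lay under 0.6. At 15 genes peaks of both Snf5 CKO lists reached a RefSeq promoter window, which runs from 250 bases before to 50 after a start. The ratio in these windows had a median of 0.300, and 14 of 15 (93.3%) lay under 0.6. The exception was Gm37116 with 0.673, and Gm5771 held no CpG at all. Among 9319 genes open in all 4 libraries the median was 0.788 and 22.1% lay under 0.6. Lost genes had a median of 0.475, genes open in no library 0.172 and all genes tested 0.597. In the same order, 67.4%, 92.3% and 50.2% lay under 0.6, so the gained share was near that of never-open genes. By either count of promoters of gained genes, their median lay between those of never-open genes and of lost genes, with no test made. Only the 15 were chosen for a peak in the window itself.

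**Figure D4:**
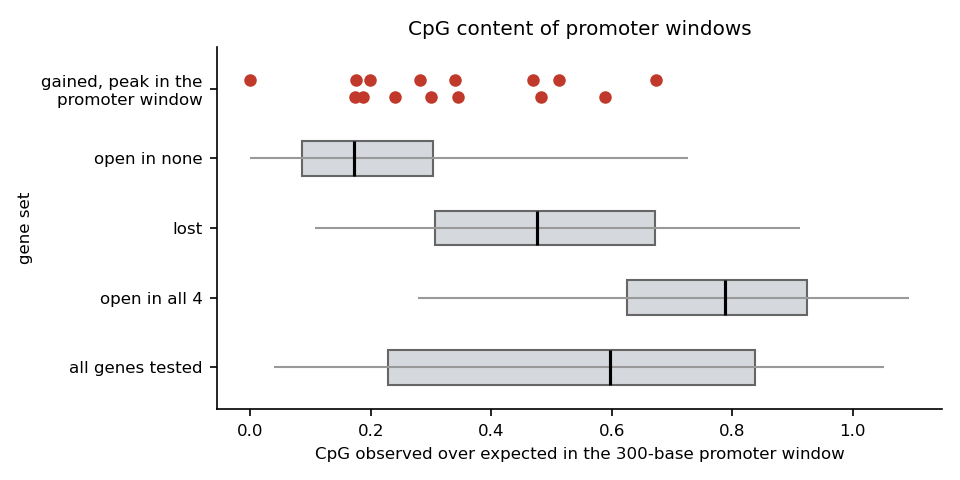
Observed over expected CpG (horizontal axis) in RefSeq promoter windows of the 15 gained genes with a peak there (points) and of other gene sets (box from the 25th to the 75th percentile, bar at the median, line from the 5th to the 95th percentile). The points have a median of 0.300, between 0.172 for genes open in none and 0.475 for lost genes, and below 0.788 for genes open in all 4.

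Short motifs were searched on both strands of the same windows. The CCAAT box (CCAAT) occurred in 18 of the 28 promoters of gained genes (64.3%) and in 11 of the 15 with a peak. It occurred in 39.1% of all promoters and 39.9% of those of genes open in all 4 libraries. The share was 39.6% for genes open in no library and 30.9% for lost genes. The facing H2-T22 and Gm6034 windows overlap and count separately among the 28 and the 15. The GC box (GGGCGG) occurred in 13 of 28 (46.4%, against 47.3% of all promoters) and the TATA box (TATAAA) in 4 (14.3%, against 13.5%), both near the share over all promoters. That share joins unlike classes. For the GC box it was 12.7% for genes open in no library, 47.0% for lost genes and 68.1% for genes open in all 4. For the TATA box it was 26.7%, 9.66% and 6.28% in the same order. In the 15 with a peak the GC box occurred in 8 and the TATA box in 1, Gm5771. The AP-1 motif (TGANTCA, 7.12% of all) occurred in 3 of 28 and the cyclic AMP response element (TGACGTCA, 2.4% of all) in 1, of which 2 and 0 were among the 15. The E-box (CACGTG, 7.96%) and the octamer (ATGCAAAT, 1.74%) occurred in none of the 28. Such matches describe the letters of these windows and show no binding.

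Peaks around the gained genes were more in Snf5 CKO at some genes and fewer at others. Within 50 kb of the gene ends, outside the windows, the median number of peaks was 3 in each Control list, 5 in Snf5 CKO 1 and 3 in Snf5 CKO 2. Over all genes tested the medians were 3, 3, 3 and 2. The mean count in Snf5 CKO minus that in Control had a median of 0 among gained genes and of 0 among all genes. It was above 0 at 13 of the 34 genes and below 0 at 16. Both Snf5 CKO lists exceeded both Control lists at 3 genes, Gm6034, Gstm6 and Parp11, and fell below them at 8, shares to be set beside 6.63% and 18.8% of all genes. Another gained region lay within this distance at 7 genes (20.6%), beside 17.8% of all genes, and a lost region at 13 (38.2%), beside 33.5%. Among the 6991 genes without a peak in either Control list, from which gained genes are drawn, these shares were lower, 14.0% for gained and 20.6% for lost regions. Among genes open in all 4 libraries they were 20.2% and 39.6%.

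Enpp3 had the largest difference, with 2 and 3 surrounding peaks in Control and 10 and 3 in Snf5 CKO. The excess in number rested on Snf5 CKO 1 alone, although 2 further gained regions, with peaks in both Snf5 CKO lists, lay nearby. Gstm6 had 1 and 2 in Control and 6 and 3 in Snf5 CKO, and Gm6034 had 3 and 4 against 9 and 5. Each of these also had 2 further gained regions nearby. H2-T22, which shares the gained peak of Gm6034, had 3 and 4 against 7 and 3, so the excess there depended on the gene used. At the other extreme, Gm867 had 8 and 5 against 4 and 2. Gm867 neighbours the targeted gene, and without the peaks at Smarcb1 its Control counts were 6 and 4. Ptpn6 had 11 and 11 against 8 and 7. Gm5771 and Gm29802 had no surrounding peak in any list. A region open in all 4 libraries lay within the 50 kb at 28 genes (82.4%, beside 71.7% of all genes and 53.9% of those without a Control peak). The nearest Control peak lay a median of 4243.5 bp from the gained peak, within 2 kb at 10 genes and beyond 50 kb at 4.

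**Figure D5:**
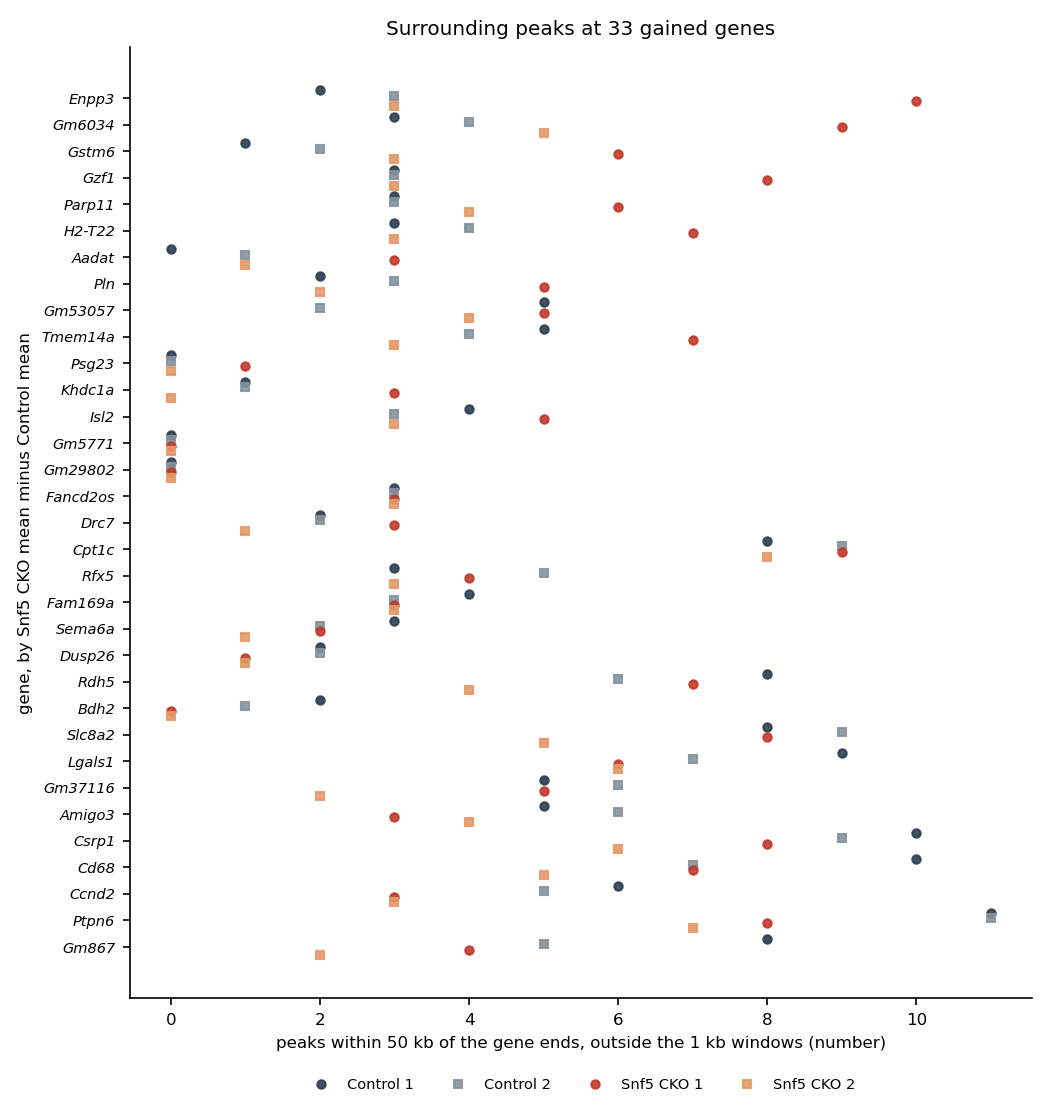
Number of peaks within 50 kb of the gene ends and outside the 1 kb windows (horizontal axis) in each of the 4 libraries (points) at 33 of the 34 gained genes, ordered by the Snf5 CKO mean minus the Control mean. Control and Snf5 CKO points intermix in most rows, from Enpp3 at the top (2, 3, 10 and 3) to Gm867 at the bottom (8, 5, 4 and 2).

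The edge of the rule fell close to some of these genes. Isl2, Enpp3 and Rfx5 were the last inside the 1 kb limit, with a Snf5 CKO peak 981, 974 and 961 bp from a gene end. Just outside it, Emp3 had peaks at 1014 and 974 bp and Aurkc at 844 and 1072 bp, with no Control peak in the same region. Of 54 genes counted just outside the window, up to 1200 bp from a gene end, 6 lay in gained regions only, Emp3 and Aurkc among them. The count of gained genes also depended on each library. A peak in Snf5 CKO 1 alone was found at 242 genes and in Snf5 CKO 2 alone at 15, against 318 in Control 1 alone and 155 in Control 2 alone. Without Control 1 the rule gave 69 genes, without Control 2 105, without Snf5 CKO 1 49 and without Snf5 CKO 2 276.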

How the data were processed

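Open chromatin was profiled by ATAC-seq in 4 libraries of sorted female germ cells, 2 Control and 2 Snf5 CKO, grouped by their labels. Per the submitters' processing notes, the genome was mm10 and the tools were MACS2 2.2.7.1, Picard 2.25.2, SAMtools 1.10, Bowtie2 2.4.2 and Trim Galore 0.6.5, without their settings. Reads were 50 bp long, per the labels. The authors deposited a separate list of broad peaks per library, with a score, a fold enrichment ratio, a −log10 p and a −log10 q for each peak. Depth is unknown, and folds served to describe and rank peaks within a list.

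Peaks were overlapped with the 1 kb to either side of each annotated end of RefSeq protein-coding genes (GRCm38.p6), because the gene table gives ends and no strand. Peaks of the 4 lists that overlapped by 1 bp were merged into regions. Starts, strands and promoter sequences came from the RefSeq promoter table, which matched 28 of the 34 genes. Python 3.11.15, pandas 2.3.3, numpy 2.4.6 and matplotlib 3.10.9 were used. The calling step was tried on these lists with peaks planted at gene ends, after nearby peaks were taken out, which checks the code alone. The genes and lists were chosen with earlier results of these data known, and no test was made on them. Of the 34 genes 33 are named or drawn singly, and 1 enters the counts and medians but is not reported here. The naming rule asked for values per library of the 10 genes with the highest weaker fold, genes sharing a peak, genes whose −log10 q reached 3 in both Snf5 CKO lists, genes not gained under the region rule and those at the edge of the window; values of the others were added. Alternatives changed the window, overlap, peak threshold, list length, region rule, flank and libraries used.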

Additional observations from a re-analysis of the deposited data

How the results depend on the processing

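No paired analysis was possible because the results come from no test. The number of gained genes was 34 in the main setting and stayed within 1.5 times of it with 500 bp windows, with 100 bp of overlap and under the rule that counts a peak anywhere in the merged region. It was 55 with 2 kb windows, 75 when every library was held to a −log10 q of 3 or more, 19 with that threshold for presence in Snf5 CKO alone, and 93 with lists cut to the same length of 28625 peaks. Leaving out 1 library gave 49 to 276 genes. Of the 34 genes, 26 stayed gained with 500 bp windows, 23 with 2 kb windows, 19 with the threshold in every library, 28 with lists of the same length and 32 under the region rule. In all 7 settings that kept the 4 libraries, 11 genes stayed gained, among them Aadat, Amigo3, Bdh2, Drc7, Fam169a, Gm53057, Gm5771, Psg23, Rdh5 and Tmem14a. Isl2 stayed gained in 1 of the 7 and Sema6a in 2. The median lower fold enrichment, 3.68, rose to 4.04 with the threshold in every library and to 4.30 with it in Snf5 CKO alone, settings that leave out weak peaks by construction. The median width, 332 bp, ranged from 262 to 384.5 bp without 1 library. The median difference in surrounding peaks was 0 and reached −1.5 with the threshold in Snf5 CKO alone, which thins the Snf5 CKO lists and not the Control lists. Depth is unknown, so a peak missing from Control may have been open below detection.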
